A study of Mus musculus with 84 samples.

Results

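Adipocytes of control mice carried 500 long clusters of H3K27ac that are described here, the largest of 13305 clusters on the autosomes. H3K27ac is acetylation of lysine 27 on histone H3 and marks active enhancers and promoters. The members were chosen from measured H3K27ac peaks: base pairs inside the peaks of at least 5 of the 9 control H3K27ac libraries were kept, pieces of kept sequence no more than 12.5 kb apart were joined, and the joined regions were ranked by the number of base pairs kept, here called covered base pairs. The 500 regions held 3648 of 24295 pieces and 10.9 of 45.6 Mb, or 23.8% of the covered base pairs, over a span of 22.1 Mb.

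CUT&Tag, in which an antibody against a histone mark directs a transposase to cut the DNA beside it, had been run on adipocyte nuclei from the epididymal fat (epiAT) of male AdipoERCre x NuTRAP mice, given in the labels as on a C576BL6 background. In every group tamoxifen was given before the diets to switch on Cre, which the adiponectin promoter drives in adipocytes, and Cre turns on the NuTRAP allele that tags nuclei with biotin for pulldown. In the 12-week cohort, H mice ate a high-fat diet (HFD) for 12 weeks and C mice ate chow, both to 18 weeks of age, and HC and CC_s mice followed the same courses with 8 further weeks on chow, to 26 weeks. In the 25-week cohort, HH mice ate HFD for 25 weeks and CC_l mice ate chow, both to 31 weeks of age, and HHC and CCC mice had 8 further weeks on chow, to 39 weeks. H and HH are called obese here, HC and HHC weight loss (WL), and the other 4 groups control. H3K27ac was profiled in 3 C, 3 H, 2 CC_s, 3 HC, 2 CC_l, 3 HH, 2 CCC and 3 HHC libraries, and H3K4me1 (enhancers), H3K4me3 (active promoters) and H3K27me3 (Polycomb-silenced chromatin) in the same 8 groups with 2 or 3 libraries each. The labels call the libraries of a group biological replicates without tying them to animals, so p-values measure only the spread between these samples.

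The libraries differed in ways that touch every value given here. H3K27ac peaks covered between 9.60 and 109 Mb per library, the files give no read totals, and fewer nuclei, fewer reads and less mark per nucleus cannot be told apart in a peak list. In control libraries H3K27ac peaks lay at the start sites of 68 to 78 of 79 adipocyte genes and of 4 to 20 of 81 genes that mark other cell types (macrophages, lymphocytes, endothelial, mural, mesothelial, epithelial and progenitor cells, neurons and hepatocytes). They lay at 24, 29, 30 and 27 start sites of other cell types, with 61, 63, 75 and 61 of adipocyte genes, in HC replicate 3, HH replicate 1, HHC replicate 1 and HHC replicate 3, the 4 libraries with the most of the former for each of the latter. The part of such cells in the results was not tested, and the H3K27ac tests are also given without these 4 libraries, which leaves 1 HHC library. For 4 H3K4me3 libraries the treatment label names another group than the title does (CC_l replicate 2, HH replicates 2 and 3 and CCC replicate 3). Titles were followed, and shares, counts of calls and the regions called in obese libraries are also given by treatment label for H3K4me3.

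Long H3K27ac clusters, often called super-enhancers or stretch enhancers, are known to gather near genes that define a cell type. In adipocytes such genes include those for storing and releasing triglyceride, for secreted adipokines, and for the transcription factors PPARγ and C/EBPα. PPARγ binds DNA together with RXR at a DR1 element, a pair of AGGTCA sites in the same direction with 1 base between them. A search of the covered base pairs of the 500 regions for AGGTCANAGGTCA on both strands gave 35 matches in 33 regions. Of these, 6 are printed, because they place this element inside control H3K27ac in the regions of ranks 1 and 4 and in regions that hold the listed adipocyte genes Cebpa, Cebpb, G0s2 and Thrsp. Each window has 101 bp of RefSeq sequence on the + strand of GRCm38, with the letters of the element in capitals as they read on that strand (the Zbtb16 window holds overlapping matches). None overlaps an exon.
Tns1, chr1:74009704-74009804: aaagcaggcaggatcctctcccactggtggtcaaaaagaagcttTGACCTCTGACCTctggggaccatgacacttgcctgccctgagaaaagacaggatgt
Zbtb16, chr9:48749538-48749638: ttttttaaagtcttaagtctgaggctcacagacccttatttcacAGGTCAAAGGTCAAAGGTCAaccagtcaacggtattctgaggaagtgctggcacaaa
Cebpa, chr7:35168097-35168197: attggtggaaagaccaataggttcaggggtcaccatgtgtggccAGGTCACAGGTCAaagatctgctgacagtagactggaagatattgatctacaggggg
Cebpb, chr2:167692026-167692126: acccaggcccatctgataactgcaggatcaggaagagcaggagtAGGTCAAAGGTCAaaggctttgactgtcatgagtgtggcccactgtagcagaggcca
G0s2, chr1:193276767-193276867: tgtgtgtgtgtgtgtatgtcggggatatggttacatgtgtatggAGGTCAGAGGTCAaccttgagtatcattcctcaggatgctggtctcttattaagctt
Thrsp, chr7:97419714-97419814: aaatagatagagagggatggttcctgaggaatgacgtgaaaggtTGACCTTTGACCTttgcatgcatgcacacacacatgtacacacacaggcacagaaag
The Tns1 and Zbtb16 windows lie inside those genes, 81240 and 86358 bp from the nearest start site, and H3K27ac peaks of 7 and 9 of the 9 control libraries covered the match. The G0s2 window lies inside Lamb3, 3599 bp from a start site, with 6 libraries. The Cebpa, Cebpb and Thrsp windows lie outside coding genes, 18239, 3160 and 2033 bp from the nearest start site, and 8 libraries covered each. The Cebpa window is named for its region. Cebpa itself lies farther off, at chr7:35119293-35121928, so the start site nearest to that window is not its own.

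The peak files also mark the stretch of highest signal in each peak. A further 3 windows of 300 bp are printed because in all 9 control libraries a local maximum of H3K27ac fell in them, at least 2000 bp from any start site and outside exons, in the regions of Cebpa, Lpl and Irs2. They lie 19432, 19506 and 96878 bp from the start site of the gene they are named for. None of 6 motifs searched was found in these letters, so nothing is in capitals.
Cebpa, chr7:35138586-35138885: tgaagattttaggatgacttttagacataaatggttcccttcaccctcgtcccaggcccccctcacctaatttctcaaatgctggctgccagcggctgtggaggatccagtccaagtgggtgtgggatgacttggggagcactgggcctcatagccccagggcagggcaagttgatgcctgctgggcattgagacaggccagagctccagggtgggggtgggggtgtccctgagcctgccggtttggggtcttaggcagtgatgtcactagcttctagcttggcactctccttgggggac
Lpl, chr8:68860836-68861135: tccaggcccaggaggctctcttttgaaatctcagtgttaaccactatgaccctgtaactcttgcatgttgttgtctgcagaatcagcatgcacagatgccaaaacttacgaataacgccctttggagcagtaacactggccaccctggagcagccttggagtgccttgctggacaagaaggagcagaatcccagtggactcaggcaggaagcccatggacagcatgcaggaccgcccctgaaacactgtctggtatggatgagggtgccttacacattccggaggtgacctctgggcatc
Irs2, chr8:10911431-10911730: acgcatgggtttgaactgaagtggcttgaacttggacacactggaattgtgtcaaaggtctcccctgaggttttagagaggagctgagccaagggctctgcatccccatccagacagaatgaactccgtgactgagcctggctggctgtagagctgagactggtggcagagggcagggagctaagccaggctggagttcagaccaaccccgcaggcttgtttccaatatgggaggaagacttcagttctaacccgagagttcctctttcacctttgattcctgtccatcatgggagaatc

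The 500 regions ranged from 13181 to 128687 covered bp with a median of 18410 bp. Of them, 123 held 25000 bp or more and 29 more than 40000 bp. The largest region, chr1:73929046-74125968, held Tns1, which encodes the focal adhesion protein tensin 1, and Rufy4, and its 128687 bp in 34 pieces were 1.82 times those of the region at rank 2. Rank 2 was Dhrs3 (chr4:144875081-145039006, 70823 bp), a retinal reductase, and rank 3 held Sfi1 and Eif4enif1 (chr11:3123054-3202720, 67893 bp). Rank 4 lay inside Zbtb16 (chr9:48694532-48798590, 61868 bp), which encodes the zinc finger transcription factor PLZF, and contained no start site of a coding gene. Rank 5 held Cebpa, one of the factors that set adipocyte identity, with Slc7a10 (chr7:35112354-35191460, 58266 bp in 8 pieces).

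The remaining 20 regions of the top 25 held the start sites of 6 genes of the adipocyte lists used here, Dgat2, Lpin1, Mgll, Lpl, Adipoq and Irs2. Triglyceride synthesis was represented by Dgat2, which catalyses the last step, with Uvrag at rank 9 (chr7:99139456-99230930, 52841 bp) and by Lpin1, a phosphatidate phosphatase, with Ntsr2 at rank 25 (41509 bp). Mgll, the monoacylglycerol lipase that ends lipolysis, was alone at rank 12 (chr6:88717405-88793619, 48733 bp). Lpl, the lipase that frees fatty acids from blood lipoproteins, was alone at rank 18 (chr8:68820030-68909511, 43612 bp in 19 pieces). Abca1, which is on no list and exports cholesterol, was alone at rank 11 (52149 bp), and the region at rank 8 lay 17282 bp from the start site of Ppara, a fatty acid-activated nuclear receptor (54544 bp). Adipoq, the gene of the hormone adiponectin, shared rank 15 with Eif4a2 and Rfc4 (chr16:23103342-23181861, 46506 bp), and Irs2, an adaptor of the insulin receptor, was alone at rank 20 (chr8:10898621-11012556, 42819 bp). The others included the regions of Sh3glb2, Miga2, Dolpp1, Crat and Ptpa at rank 6, Rbm47 at 7, Amotl2 at 13, Ulk4 and Trak1 at 14, Hoxc8, Hoxc6, Hoxc5 and Hoxc4 at 16, Bahcc1 at 17, Anxa6, Ccdc69 and Gm2a at 19, E030018B13Rik and Klf13 at 21, Por and Tmem120a at 22, a cluster of 9 genes from Adam15 to Pygo2 at 23, and Sh3pxd2a at 24.

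**Figure D1:**
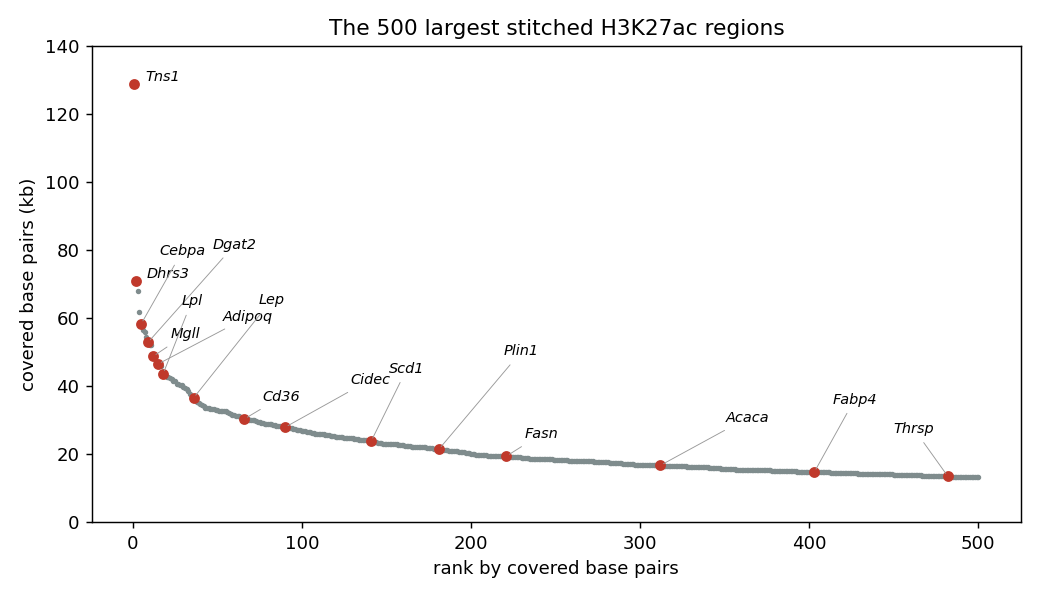
Covered base pairs in kb (vertical axis) of the 500 regions against their rank (horizontal axis), with a point for each region and 16 regions that hold a named gene in red. The curve drops steeply over the first ranks, from 128687 bp at rank 1, and is nearly flat where it ends at 13181 bp at rank 500.

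No break separated the 500 from the regions behind them. The last 5 members were Dusp4 (13269 bp), a region with no gene inside (13267 bp), Trp63 (13219 bp), Elof1 with Acp5 (13199 bp) and Cyb5b (13181 bp). The next 5 were a region near Lgr4 with no gene inside (13169 bp), Orm1, Orm3 and Orm2 (13166 bp), Kmt2e (13151 bp) and a pair of regions with no gene inside (13148 and 13122 bp). On the X chromosome, which the rule leaves out, 1 region would have been large enough, that of the glucocorticoid-induced gene Tsc22d3 with 15493 bp.

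Protein-coding start sites lay in 385 of the 500 regions (77%), against 45.3% of the other regions, which are shorter. Of the 115 without a start site, 71 overlapped a coding gene and 44 lay between genes. A single coding gene started in 222 regions (44.4%), and 5 or more started in 29. The 500 regions held the start sites of 736 of 20807 coding genes (3.54%), and all stitched regions those of 8055 (38.7%). Many members were made of several pieces: 102 had 10 or more and 6 had 1.

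Genes of adipocyte function were often among them. Of 79 autosomal genes in 5 adipocyte lists, 38 (48.1%) started in the 500 regions and 75 (94.9%) in any stitched region, beside the 3.54% and 38.7% of all coding genes. Since the regions were built from adipocyte H3K27ac, these counts describe the regions and are no test.

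The lipid droplet and lipolysis list had the highest share, 9 of 14 genes (64.3%). These were Mgll at rank 12, the triglyceride lipase gene Pnpla2 at 41, the β3-adrenergic receptor gene Adrb3 at 77, G0s2, which encodes an inhibitor of that lipase, at 86, Cidec at 90, the droplet coat genes Plin1 at 181 and Plin4 and Plin5 together at 292, and the hormone-sensitive lipase gene Lipe at 190. Of the lipogenesis and triglyceride synthesis list, 10 of 18 (55.6%) were inside. Besides Dgat2 and Lpin1 these were Pck1 at 51, which supplies glycerol from pyruvate, the acetyl-CoA carboxylase genes Acacb at 52 and Acaca at 312, the desaturase gene Scd1 at 141, Agpat2 at 160, the lipogenic factor gene Srebf1 at 163, the fatty acid synthase gene Fasn at 221, and Thrsp at 482.

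The lipid uptake and insulin response list had 8 of 16 genes inside (50%): Lpl, Irs2, the fatty acid transporter gene Cd36 at rank 66, the caveolar genes Cav1 at 72 and Cavin1 at 218, Acsl1 at 80, the insulin signalling kinase gene Akt2 at 128, and the fatty acid carrier gene Fabp4 at 403. Of the adipokines, 4 of 10 (40%) were inside, namely Adipoq, the leptin gene Lep at 36, Retn (resistin) at 173 and Cfd (adipsin) at 187. Of the adipocyte transcription factors, 7 of 21 (33.3%) were inside. These were Cebpa, Cebpb at 35, Bcl6 at 136, Zfp423 at 219, Rxra, the partner of PPARγ, at 278, Nfia at 355 and Klf15 at 477. Pparg, the gene of PPARγ itself, was not inside. It started in a smaller stitched region at rank 1086 with 8451 covered bp. Ebf1 at 1201, Ebf2 at 1236 and Cebpd at 1302 were also outside. Genes outside from the other lists included Gpam at 528, Plin2 at 620 and Slc2a4 at 783.

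Other lists had smaller shares inside, though that of genes used by nearly all cells lay close to the 33.3% of the adipocyte transcription factors. Of 14 circadian clock genes 2 (14.3%) were, Nr1d1 at rank 325 and Cry2 at 414, and of 10 genes that nearly all cells use 3 (30%) were, with Gapdh at 298 and Actb at 371 among them. Of 80 autosomal genes in 9 lists of other cell types, 1 (1.25%) was in the 500 and 8 (10%) in any stitched region. That 1 was Egfl7, an endothelial gene that shared the region at rank 160 with Agpat2. None of the 12 macrophage, 10 progenitor, 9 lymphocyte, 8 mural, 8 mesothelial, 8 epithelial, 8 hepatocyte and 7 neuron genes was inside.

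**Figure D2:**
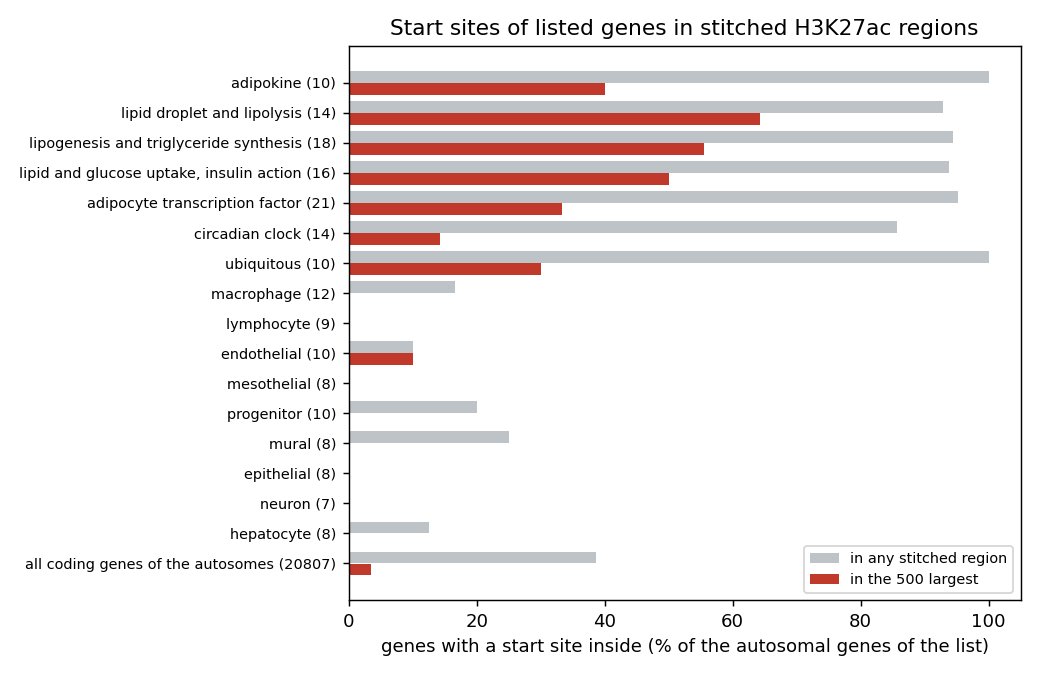
Percent of the autosomal genes of each list whose start site lies in any stitched region and in the 500 regions, with bars from 0. The 5 adipocyte lists reach 33.3 to 64.3% in the 500, the lists of other cell types 0 to 10%.

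Marks that the rule did not use also differed between the 500 and the other stitched regions. In each of 10 control libraries H3K4me1 peaks covered more of the 500 (71.8% ± 18.7, SD) than of the other regions (59.7% ± 18.3), a difference of 12.2 ± 3.87 percentage points. H3K4me3 went the other way in 10 of 10 libraries, with 50.4% ± 20.6 of the 500 and 57.3% ± 17.7 of the others. H3K27me3 covered little, 2.08% ± 1.76 of the 500 and 1.26% ± 1.44 of the others, and was higher in the 500 in 10 of 10 libraries. This rested on the 4 members with the most H3K27me3, since without them, as a description made after their values were seen, the members had 0.927% ± 1.66 and were above the other regions in 1 of 10 libraries. Each difference over all 500 had an exact two-sided sign-flip permutation p = 0.00195 over the 10 libraries, the smallest that they can give. Of the pieces that make up the 500 regions 76.5% lay at least 2000 bp from a start site, against 61.8% of those of the other regions. The GC content was 49.3% and 49.4%, and the ratio of observed to expected CpG was 0.272 and 0.382.

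Short motifs were counted in the pieces. Over the central 300 bp of the pieces, the letters TTGCNNAA, which C/EBP factors bind, were in 13.9% of 3499 windows of the 500 and in 16.6% of 20231 windows of the other regions. TGANTCA (AP-1) was in 8.72 and 9.001%, TCCCNNGGGA (EBF) in 1.4004 and 1.305%, the glucocorticoid receptor motif GNACANNNTGTNC in 1.00 and 1.28%, the NF-I motif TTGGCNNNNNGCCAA in 0.0572 and 0.0494%, and the DR1 letters in 0.0572 and 0.084%. Over all covered base pairs DR1 occurred 0.322 times per 100 kb in the 500 and 0.247 times in the other regions. Both strands were searched, matches of different motifs may overlap, and a match of letters says nothing of binding.

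A small number of members had peaks of all 4 marks. In control libraries H3K27me3 covered more than 50% of the covered base pairs of 4 regions, namely the region of Sfi1 and Eif4enif1 at rank 3 (93.9%), a region near Ezh2 at 45 (57.3%), a region near Pdia4 at 49 (52.1%) and the region of Gm10722 and its neighbours at 95 (98.6%). In these 4, which make up 1.49% of the covered base pairs of the 500, the group means of H3K4me3 were 83.5% or more and those of H3K27ac 53.2% or more in every group, while those of H3K4me1 went down to 38.3% and those of H3K27me3 to 22.8%. A peak list does not show whether the marks share nuclei or whether reads from elsewhere were aligned to these regions. Neither was tested. The next highest H3K27me3 level was 43.6% in the Adipoq region, where the control libraries ranged from 24.3 to 71.5%. H3K27me3 covered nothing of 303 members and over 10% of 9.

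H3K27ac itself covered the 500 regions unevenly across libraries, and its values in control libraries are part of the rule, so the diet groups are described without a test. The 3 C libraries covered 88.8, 89.6 and 77.0% of the covered base pairs and the 2 CC_s libraries 56.0 and 82.2%. In the other cohort CC_l libraries covered 97.4 and 97.7% and CCC libraries 98.9 and 45.9%. CCC replicate 3 and CC_s replicate 1 were thus the lowest controls, with 20.9 and 25.2 Mb of peaks in all against 42.8 Mb or more in the other controls. The H libraries covered 35.6, 15.8 and 21.5%, and the HC libraries 27.2, 45.3 and 29.6%, all 6 below every control. HH libraries covered 49.01, 90.03 and 92.02% and HHC libraries 73.9, 97.0 and 49.6%, which overlapped the controls. As group means this was 85.1% ± 7.06 (SD, n = 3) in C, 24.3% ± 10.2 (n = 3) in H, 34.03% ± 9.80 (n = 3) in HC, 77.0% ± 24.3 (n = 3) in HH and 73.5% ± 23.7 (n = 3) in HHC. C is age-matched to H only. The controls of HC, HH and HHC are CC_s, CC_l and CCC, and the HHC mean lay between the 2 CCC libraries.

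The regions outside the 500 moved with them. Control libraries covered 81.5% ± 18.97 (n = 9) of the 500 and 77.4% of the other regions, obese libraries 50.7% ± 33.3 (n = 6) and 48.7%, and WL libraries 53.8% ± 27.03 (n = 6) and 51.2%. As a share of a library's own peak base pairs, which was smaller in several libraries with long peaks (16.01% in CCC replicate 1 with 94.3 Mb, 24.7% in CCC replicate 3 with 20.9 Mb), the spans of the 500 held 15.5 to 24.9% in the controls, 9.41 to 24.9% in the obese and 8.05 to 26.2% in the WL libraries. H replicate 3 with 24.9% and HC replicate 1 with 26.2% were level with or above the highest control. HHC replicate 3, HH replicate 1, HC replicate 3 and HHC replicate 1 had the lowest shares, 8.05, 9.41, 11.2 and 11.6%, and they are the 4 libraries with the most start sites of other cell types for each one of an adipocyte gene. These measures are not independent, since 38 of the 79 adipocyte genes start in the 500 regions.

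**Figure D3:**
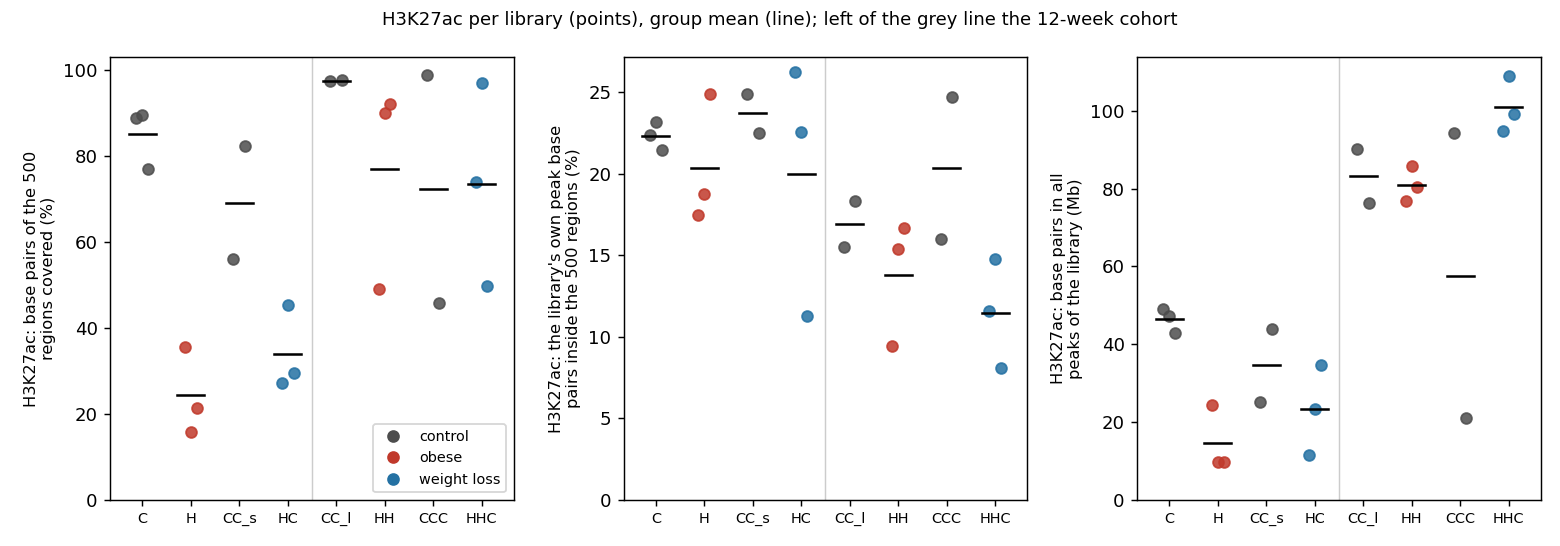
H3K27ac by library and group in 3 panels, the percent of the covered base pairs of the 500 regions inside peaks, the percent of the library's own peak base pairs inside their spans, and the total Mb of its peaks, with points for libraries and lines for group means. H and HC libraries cover 15.8 to 45.3% of the regions, below every control (45.9 to 98.9%), while HH and HHC libraries reach 97.0%.

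Single regions were spread as widely. The region of Tns1 and Rufy4 was covered from 54.9 to 99.3% with a median of 92.7% in the 9 control libraries, from 10.0 to 95.6% with a median of 43.8% in the 6 obese, and from 28.1 to 98.7% with a median of 57.4% in the 6 WL libraries. The Cebpa region had medians of 90.2, 47.9 and 53.8% in the same order. In both regions the highest obese and WL libraries reached the control range. For the leptin gene Lep the medians were 93.9, 34.4 and 40.3%, and for Pck1 92.9, 17.7 and 39.9%, with a WL library at 0. The Adipoq region differed less in its medians, 86.7, 68.2 and 60.1%, with ranges of 47.7 to 100%, 23.7 to 97.9% and 8.11 to 100%. Fabp4 (90.4, 67.2 and 60.8%) and Lipe (97.9, 66.5 and 66.2%) also kept higher medians in the obese and WL libraries than Fasn (85.1, 26.2 and 18.5%) and Acacb (90.9, 18.6 and 28.1%).

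Acaca stood low in both cohorts. Its H3K27ac coverage was 99.6, 65.3 and 85.6% in C and 13.7, 9.1 and 9.0% in H, 96.8 and 94.5% in CC_l and 14.4, 27.2 and 43.6% in HH. After weight loss it was 10.6, 21.9 and 5.9% in HC against 38.7 and 51.8% in CC_s, and 37.98, 56.66 and 18.28% in HHC against 100 and 51.2% in CCC. The groups overlapped only between HHC and CCC.

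Over the 12 diet libraries together, the mean H3K27ac coverage was lower than the control mean in all but 4 of the 500 regions, with a median difference of -30.2 percentage points. The rule chose base pairs that these same controls covered, which favours a lower diet mean in advance, so this is no test. The other stitched regions also had lower mean coverage in obese and WL libraries, as given above. The lowest differences were those of a region near Cd180 at rank 338 (28.1 against 88.9%, -60.8 points), of Acaca (22.4 against 75.9%, -53.6), of a region inside Fign (-53.3), of Trp63 (-52.8) and of Nr2f2 (-52.7). The highest were 7.97 near Ezh2, 4.93 near Pdia4, 2.42 for the Gm10722 region and 1.03 for the Sfi1 region, which are the 4 regions with peaks of all marks, followed by Btg2 with -2.31. By list the median was -32.4 for adipokines, -33.1 for lipid droplet and lipolysis, -35.5 for lipogenesis, -28.2 for uptake and insulin response and -29.2 for transcription factors. These values lay close to the -30.2 of all members.

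The list of 500 changed when it was built from other sets of libraries. A list of 500 made in the same way from the 5 controls of the 12-week cohort (3 of them needed) overlapped 90.8% of the members, and 92.2% of that list overlapped a member. For the 4 controls of the 25-week cohort (3 needed) the shares were 87.4 and 86.8%. A list from the 6 obese libraries (4 needed) overlapped 54% of the members and was itself overlapped by members in 55.8%, and one from the 6 WL libraries had 51.6 and 53.4%. Those libraries kept fewer base pairs in all, 17.7 and 24.7 Mb, and 499 of the 500 members overlapped some stitched region of each. The highest members missing from the obese list were Mgll at rank 12, a region near Trabd2b at 28, the angiogenic factor gene Vegfa at 31, the pyruvate carboxylase gene Pcx at 32 and the region of Podn and Scp2 at 38. The highest of the obese list that were no members were Rara, a retinoic acid receptor gene, at its rank 55, Rhob at 60, Tspan14 at 63, a region near Tbc1d1 at 73 and Hjurp at 79. These names were taken after the lists were seen.

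To test H3K27ac itself, regions were built from the controls of the other cohort, so that no library was measured in regions that its own controls had chosen. They are still places of control H3K27ac, so the direction of a difference is not free of that choice. The 12-week libraries were measured in the 500 largest regions of the CC_l and CCC libraries, and the 25-week libraries in those of the C and CC_s libraries, and 86.8 and 92.2% of these regions overlapped a member. H libraries covered 32.12, 14.03 and 19.03% and C libraries 77.3, 78.3 and 66.7%, a difference of -52.4 points. HH libraries covered 50.4, 92.1 and 93.8% and CC_l libraries 96.7 and 96.9%, a difference of -18.0 points. The groups did not overlap in either cohort. The mean of both, -35.2 points, had an exact permutation p = 0.025 (two-sided, labels permuted within cohorts) and 0.276 after Benjamini-Hochberg adjustment over 12 such tests. Without the 4 libraries named above it was -28.1 with an exact permutation p = 0.0167.

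After weight loss HC libraries covered 24.2, 40.9 and 27.3% of the cross-cohort regions and CC_s libraries 48.1 and 72.3%, without overlap. HHC libraries covered 76.4, 97.7 and 50.1% and CCC libraries 98.4 and 49.6%, with overlap. The mean difference was -14.3 points (exact permutation p = 0.36, adjusted 0.48), and -1.96 without the 4 libraries (exact permutation p = 0.889). WL and obese libraries were compared in the 500 regions themselves, which neither chose, and differed by 9.73 points in the 12-week and -3.50 points in the 25-week cohort, a mean of 3.12 (exact permutation p = 0.76, adjusted 0.82). Without the 4 libraries it was 8.97 (exact permutation p = 0.133). It turned negative without HH replicate 1 (-3.88) or HHC replicate 2 (-2.75).

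The excess over other regions did not pass the test. Relative to the other stitched regions of the same libraries, obese libraries were lower in the cross-cohort regions by a further -3.52 points (exact permutation p = 0.085, adjusted 0.276, but -18.7 with an exact permutation p = 0.025 at equal peak base pairs), WL libraries by -4.00 (p = 0.18 in the same exact permutation test, adjusted 0.325), and WL and obese libraries differed by 0.546 (exact permutation p = 0.82). Without the 4 libraries these were -2.43, -1.68 and 1.59. Cutting to equal peak base pairs keeps the peaks of highest total signal, and the result moved with list length within a group. Of the 500 and of the other regions, CCC replicate 1 (94.3 Mb uncut) then covered 47.4 and 6.23%. CCC replicate 3 (20.9 Mb uncut) covered 29.5 and 17.4%.

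Region by region, limma fits over all stitched regions with at least 1000 covered bp asked which were lower or higher (adjusted p under 0.05 over all regions tested). Every region fitted was built from control H3K27ac. H3K27ac gained elsewhere on the diet therefore cannot appear, and calls of lower coverage are favoured over calls of higher. The 500 are also by choice the regions with the most covered base pairs. The part of size in the shares called was not tested. In H against C, 51.5% of all cross-cohort regions were called lower and 0.0796% higher. Of the 500 largest 460 (92%) were, with a median difference of -53.5 points beside -46.5 over all regions. The count was 278 without H replicate 2 and 48 when every library was cut to equal peak base pairs. Leading by p were the region near Cd180 (-79.6 points, with 11.4, 0 and 12.1% in H and 92.5, 91.3 and 78.6% in C), Nr2f2 (-79.3), a nuclear receptor gene, the protocadherin genes Pcdhgc3 to Pcdhgc5 (-76.7), Pik3r1 (-75.8), the regulatory subunit of PI3 kinase, and Hipk2 (-73.7).

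Of 41 cross-cohort regions with a listed adipocyte gene, 40 were called lower in H, beside 92% of the 500 and 51.5% of all regions, with 48 of the 500 called at equal peak base pairs. Lep had 34.8, 14.5 and 29.3% in H and 87.4, 82.6 and 85.1% in C, a difference of -58.9 ± 14.2 points (SE, limma adjusted p = 0.00752). Mgll had 15.7, 2.4 and 11.1% against 94.4, 81.7 and 57.0% (-68.0 ± 14.6, limma adjusted p = 0.00529). Cebpa had 47.12, 20.05 and 33.997% against 86.0, 93.5 and 82.5% (-53.6, limma adjusted p = 0.0147). Agpat2 (-69.6), Pck1 (-68.3), Acsl1 (-68.2) and Scd1 (-68.0) were at the lower end and Fabp4 (-41.8) and Pnpla2 (-40.4) at the upper end of those called. The exception was Adipoq, with 84.1, 47.1 and 39.9% in H and 62.6, 72.9 and 96.5% in C, where the groups overlapped (-20.3 ± 18.7, limma adjusted p = 0.354).

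None of the 500 was called in the other H3K27ac fits. In HC against CC_s none was called (1.2% of all regions were called lower and 0.00796% higher), while 193 of the 500 (38.6%) and 21.1% of all regions had an unadjusted p under 0.05. Without CC_s replicate 1, 49 were called, in a fit with 1 CC_s library whose spread is taken to be that of HC. In HH against CC_l none was called (0% of all, with an unadjusted p under 0.05 in 3 of the 500 and 2.31% of all), although all 38 regions with a listed gene lay below 0 with a median of -19.1 points, as did 487 of the 500 with a median of -17.3 (-13.01 over all regions). For Lep the HH libraries had 18.1, 93.2 and 95.1% and the CC_l libraries 99.5 and 98.1%, so that replicate 1 made most of the difference. For Acaca they had 19.3, 36.4 and 50.7% against 95.3 and 94.5% (-59.5 ± 20.3, limma adjusted p = 1). In HHC against CCC none was called (0% of all, with an unadjusted p under 0.05 in 0 of the 500 and 2.58% of all), and 106 were without CCC replicate 1, which left 1 CCC library whose spread is taken to be that of the other groups. In WL against obese libraries none of the 500 was called in limma (0% of all), 0 had an unadjusted p under 0.05, beside 1.42% of all regions, and 1 was called at equal peak base pairs.

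The other marks were compared in the 500 regions directly. The rule used none of their libraries. The study paired its assays within a fat depot, though, so control animals behind the rule are also among those compared. H3K4me1 covered 48.79, 37.99 and 50.17% in H and 75.1, 70.2 and 51.6% in C, and 37.8, 84.3 and 88.2% in HH and 84.3 and 90.4% in CC_l. The mean difference was -18.6 points (exact permutation p = 0.095, adjusted 0.276), and the groups overlapped in the 25-week cohort. WL libraries had 65.9, 44.4 and 14.8% in HC and 69.2, 92.5 and 59.7% in HHC, against 36.5, 55.3 and 77.3% in CC_s and 82.7 and 95.2% in CCC, a mean difference of -14.9 points (exact permutation p = 0.215, adjusted 0.325).

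H3K4me3 covered 23.8, 22.5 and 12.0% of the regions in H and 42.6, 55.5 and 49.9% in C, without overlap. In the 25-week cohort it covered 61.6 and 69.0% in HH and 46.4 and 72.6% in CC_l, with overlap. The mean difference was -12.0 points (exact permutation p = 0.217, adjusted 0.325), and -6.71 by treatment label (exact permutation p = 0.55). In WL it covered 25.1, 16.3 and 23.1% in HC and 47.9, 71.5 and 44.2% in HHC, against 17.9, 23.4 and 42.6% in CC_s and 77.6 and 75.6% in CCC. The mean difference was -14.3 points (exact permutation p = 0.09, adjusted 0.276), and -10.8 by treatment label (exact permutation p = 0.155). H3K27me3 covered at most 9.45% in any library and differed by 0.808 points in obese (exact permutation p = 0.4, adjusted 0.48) and 2.17 points in WL libraries (exact permutation p = 0.115, adjusted 0.276).

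As a share of each library's own peak base pairs, a measure added after the data were seen, the spans of the 500 took up less of H3K4me1 and H3K4me3. The spans were chosen on H3K27ac of the control animals, and the part of that choice in these differences was not tested. For H3K4me1 the share was 15.6, 13.6 and 19.4% in H against 21.2, 21.9 and 21.2% in C, and 9.34, 12.4 and 12.6% in HH against 15.0 and 14.3% in CC_l. The groups did not overlap in either cohort, and the mean difference was -4.23 points (exact permutation p = 0.005, adjusted 0.0225 over 9 such tests). All peaks of a library together covered a mean of 36.4 Mb in H, 39.4 Mb in C, 89.1 Mb in HH and 88.9 Mb in CC_l. For H3K4me3 in WL it was 11.7, 11.4 and 8.64% in HC against 12.5, 13.5 and 13.4% in CC_s, and 8.95, 9.99 and 6.92% in HHC against 12.998 and 12.47% in CCC, a difference of -3.33 points without overlap (exact permutation p = 0.005, adjusted 0.0225). The mean total length of a library's peaks was 24.98 Mb in HC, 24.8 Mb in CC_s, 88.6 Mb in HHC and 78.8 Mb in CCC. By treatment label the difference was -2.81 points (exact permutation p = 0.01). With any 1 library left out, both differences kept an exact permutation p of 0.03 or less.

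The remaining own-peak shares moved with single libraries or labels. H3K4me3 in obese libraries differed by -1.81 points (exact permutation p = 0.0167, adjusted 0.036), but by -0.589 (exact permutation p = 0.467) by treatment label, and H3K4me1 in WL by -3.87 (exact permutation p = 0.065, adjusted 0.0975). The share of H3K27me3 was higher, by 0.864 points in obese (exact permutation p = 0.0167) and 0.812 in WL libraries (exact permutation p = 0.02, both adjusted 0.036), though the p rose to 0.0556 and 0.0875 with 1 library left out. H3K27ac in the cross-cohort regions differed by -2.42 points in obese (exact permutation p = 0.21, adjusted 0.236) and -6.17 in WL libraries (exact permutation p = 0.16, adjusted 0.206), and WL and obese libraries in the 500 regions differed by -1.34 (exact permutation p = 0.64). Without the 4 libraries these were -1.36 (exact permutation p = 0.3), -2.41 (exact permutation p = 0.667) and 1.41 (exact permutation p = 0.433). H3K4me3 peaks lay at 2 to 33 start sites of other cell types in controls, 34, 30 and 2 in H, 47 and 47 in HH, 15, 8 and 37 in HC, and 45, 54 and 50 in HHC, and their part in these shares was not tested.

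**Figure D4:**
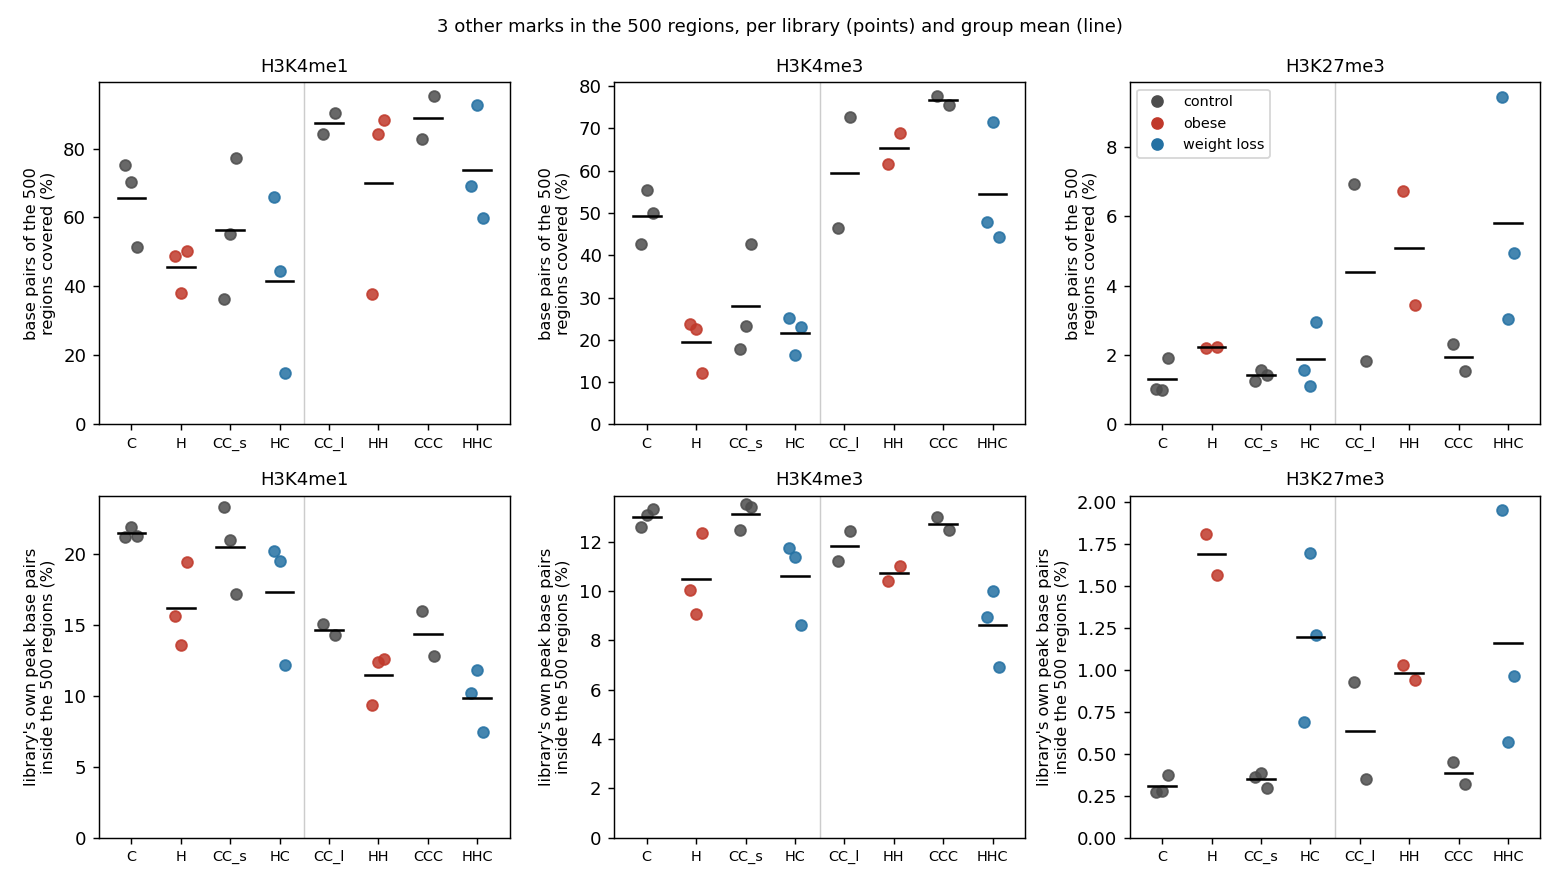
H3K4me1, H3K4me3 and H3K27me3 by library and group, with the percent of the covered base pairs of the 500 regions in the upper row and the percent of each library's own peak base pairs inside their spans in the lower row (points for libraries, lines for group means). In the lower row H3K4me1 falls from 21.2 to 21.9% in C to 13.6 to 19.4% in H, and H3K4me3 from 12.47 to 12.998% in CCC to 6.92 to 9.99% in HHC.

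Region by region, H3K4me3 calls among the members were about as frequent as among all regions or less so. In obese against control 3 members were called lower (0.533% of all regions) and none higher (0.154% of all), all 3 holding a lipogenic gene. The first was Acaca (chr11:84168270-84199089), acetyl-CoA carboxylase, with 11.4, 9.76 and 8.95% in H against 68.9, 62.4 and 85.4% in C and 28.9 and 41.5% in HH against 63.1 and 85.1% in CC_l (-50.6 ± 9.88 points, limma adjusted p = 0.0257). The next was Scd1 (chr19:44387193-44424354), the stearoyl-CoA desaturase, with 8.35, 17.5 and 6.61% in H against 59.6, 63.8 and 69.4% in C and 46.7 and 58.8% in HH against 61.3 and 79.3% in CC_l (-35.5 ± 7.46, limma adjusted p = 0.037). The last was the region of Ndufc2 and Thrsp (chr7:97399723-97428993), with 34.6, 17.1 and 24.8% in H against 95.9, 93.7 and 92.6% in C (-40.4 ± 8.68, limma adjusted p = 0.0417). In the 25-week cohort it had 61.5 and 76.9% in HH against 75.4 and 87.4% in CC_l, with overlap. For Acaca and Scd1 the obese libraries lay below the controls in both cohorts by title. By treatment label the 25-week direction turned for all 3, with HH and CC_l means of 89.6 and 52.3% for Acaca, 82.9 and 60.02% for Scd1 and 92.8 and 76.2% for Thrsp. The count was not stable, at 0 to 35 with 1 library left out (35 without CC_l replicate 1) and 0 by treatment label.

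In WL against control 21 members were called lower in H3K4me3 (6.76% of all regions) and none higher (0.00903% of all). Acaca again had the smallest p, with 26.1, 15.5 and 12.2% in HC against 21.2, 28.7 and 84.0% in CC_s and 21.3, 34.6 and 15.8% in HHC against 95.6 and 94.2% in CCC (-48.8 ± 9.38 points, limma adjusted p = 0.00667). Fabp12, a fatty acid binding protein gene, followed with 4.38, 0 and 0% in HC, 2.64, 3.93 and 19.4% in CC_s, 12.7, 19.6 and 0% in HHC and 55.2 and 50.8% in CCC (-24.7 ± 4.77, limma adjusted p = 0.00679). Then came a region inside Klhl2 (-37.1, limma adjusted p = 0.0160), Tmem120b (-30.6, limma adjusted p = 0.0201) and the region of Adap1 and Cox19 (-29.1, limma adjusted p = 0.0238). Listed genes called were, beside Acaca, Fasn (-26.4, limma adjusted p = 0.0281), Lpl (-24.3, limma adjusted p = 0.0403), Thrsp (-28.8, limma adjusted p = 0.0472) and Bcl6 (-21.6, limma adjusted p = 0.048). HHC and CCC did not overlap in these regions, Bcl6 not compared by library, while HC and CC_s overlapped in those of Acaca, Fabp12, Tmem120b, Adap1, Fasn and Thrsp. By treatment label HHC and CCC overlapped for Acaca, Fasn, Lpl and Thrsp. The count was 3 to 215 with 1 library left out (215 without HHC replicate 2, 45 without CC_s replicate 1) and 0 by treatment label.

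The adipocyte lists had lower median differences in H3K4me3 than the members as a whole. Their regions also had more H3K4me3 in control libraries, a median of 61.9% beside 51.5% over the 500, which leaves more room for a drop in points. The part of this in the differences was not tested. Of 37 members with a gene of the 5 adipocyte lists, all lay below 0 in obese libraries, with a median of -22.5 points beside -11.6 over the members and -9.63 over all regions (by title), and 22 had an unadjusted p under 0.05. The 3 called were all in the lipogenesis list, where 7 of 10 had an unadjusted p under 0.05. The counts were 3 of 4 for adipokines, 7 of 8 for lipid droplet and lipolysis, 2 of 8 for uptake and insulin response and 3 of 7 for transcription factors. In WL the median was -21.6 points beside -14.3 over the members and -9.86 over all regions, 24 had an unadjusted p under 0.05, and 5 were called, 3 of them lipogenic. Over all 500 members, 121 (24.2%) in obese and 213 (42.6%) in WL had an unadjusted p under 0.05, beside 14.9 and 24.7% of all regions. Members are larger than the other regions, and the part of size in these shares was not tested. The comparisons with obese and with WL libraries use different control libraries.

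**Figure D5:**
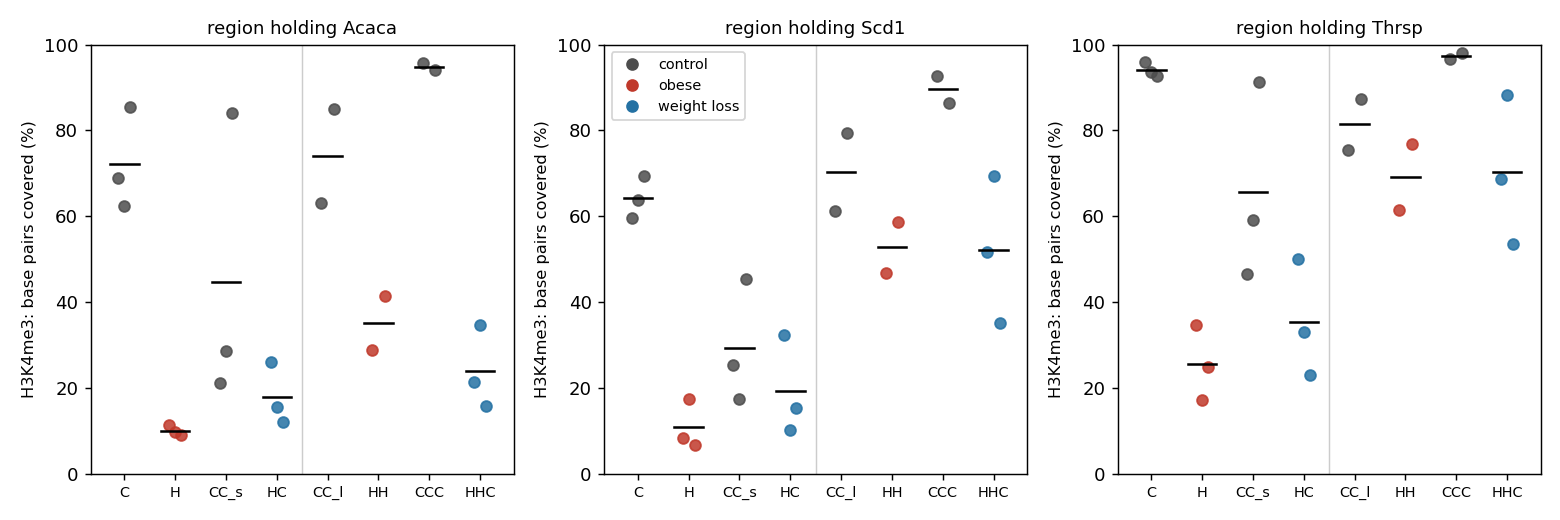
H3K4me3 coverage (percent of covered base pairs) of the regions holding Acaca, Scd1 and Thrsp in each library, with points for libraries, lines for group means and a vertical line between cohorts. H libraries lie at 8.95 to 11.4% for Acaca against 62.4 to 85.4% in C, and HHC libraries at 15.8 to 34.6% against 94.2 and 95.6% in CCC, while CC_s libraries spread from 21.2 to 84.0%.

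The other marks called few members. In H3K4me1, 1 member was called lower in obese libraries (1.17% of all regions) and none higher (0.395% of all), a region near Usp24 at rank 366 (chr4:106185111-106221356). It had 6.83, 0 and 7.59% in H against 78.63, 88.05 and 67.67% in C, and 7.88, 63.6 and 51.3% in HH against 86.9 and 93.9% in CC_l (-61.4 ± 14.02 points, limma adjusted p = 0.0366). Members with an unadjusted p under 0.05 were 82 (16.4%), beside 16.5% of all regions. The count was 0 to 3 with 1 library left out, and 37 at equal peak base pairs. In H3K4me1 after weight loss none was called in limma (0.44% of all lower, 0.287% higher), with 23 members (4.6%) and 15.7% of all regions at an unadjusted p under 0.05, and 14 were called at equal peak base pairs. In H3K27me3, 336 members had enough coverage to be fitted and limma called none in obese (0.119% of all lower, 0.358% higher) or WL libraries (0.269% lower, 0.209% higher). At an unadjusted p under 0.05 there were 12 in obese, all higher, beside 4.03% of all regions, and 35 in WL libraries, 34 of them higher, beside 6.84%. With 45 called without CC_l replicate 2 in obese and 18 without HHC replicate 2 in WL libraries, these counts rested on single libraries.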

How the data were processed

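The 84 deposited peak lists hold, for each peak that the authors called per library, its position, its total signal and its highest signal in unscaled whole numbers. Per the submitters' processing notes and the study's methods, reads were trimmed with Trim Galore 0.6.6, aligned to mm10 (GRCm38) with Bowtie2 2.4.4, handled with SAMtools 1.13 and bedtools 2.30, and peaks were called with SEACR 1.3. Read depth is not given, and a library with longer peaks covers more of any region.

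The main measure was the percent of a region's covered base pairs inside a library's peaks. Genes were protein-coding genes of GENCODE M21, and sequences and motifs came from the RefSeq GRCm38 genome. Shares were compared over libraries by exact permutation within cohorts, averaged over both cohorts, with Benjamini-Hochberg adjustment over 12 tests. Regions were compared with limma 3.58.1 (R 4.3.3) on coverage, with a mean for each group, over all stitched regions of at least 1000 covered bp. Of the 11 fits, the 7 over both cohorts tested the difference averaged over the cohorts. Calls had an adjusted p under 0.05. The limma step was tested on simulated data. Other steps ran in Python 3.11.15 with numpy 2.4.6 and pandas 2.3.3, and figures were drawn with matplotlib 3.10.9.

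The members and gene lists were chosen with earlier results of these data known. Named were the 25 largest regions, listed genes inside the 500, up to 5 called members per direction and fit, ranks 496 to 505, the 5 highest and lowest H3K27ac differences and the members with most H3K27me3. Further called regions and examples from rebuilt lists were named after their values were seen. Alternatives were stitching gap, number of regions and control libraries needed, equal peak numbers, scale, span, filter, treatment labels, replicate block and each library left out. Shares of own peak base pairs, equal peak base pairs, the sign-flip tests and leaving out 4 libraries were added after the data were seen. A few named items that these rules would take are not reported here.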

Additional observations from a re-analysis of the deposited data

Results flagged for a closer look

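The obese effect on H3K4me3 in the 500 regions differed between cohorts. It was -29.9 points in the 12-week cohort, where H libraries averaged 19.5% and C libraries 49.3% without overlap, and 5.79 points in the 25-week cohort, where HH libraries averaged 65.3% and CC_l libraries 59.5% with overlap. The difference of the effects was -35.7 points (exact permutation p = 0.0167, 0.2 after adjustment over the 12 such differences), so it did not pass the correction. Of the 25-week H3K4me3 libraries in it, HH replicates 2 and 3 and CC_l replicate 2 are among those whose treatment label and title disagree. By treatment label HH libraries averaged 74.1% and CC_l libraries 57.7%, an effect of 16.5 points, and the difference between cohorts was -46.3 points (exact permutation p = 0.0167).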

How the results depend on the processing

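Of the share differences, 111 of 125 values under other settings and 119 of 129 with 1 library left out kept their direction and their side of an exact permutation p of 0.05. Of the counts, 41 of 72 and 53 of 96 stayed within 1.5 times. What limits the results is the length of the peaks, which differs between libraries for reasons the lists do not show, and the 2 or 3 libraries of each group. The cause was not tested for any change given here.

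At equal peak base pairs the WL minus obese difference in H3K27ac turned to -2.24 points, and to -0.984 beyond the other regions. The H3K27ac difference of obese libraries beyond the other regions became -18.7, that of H3K4me1 in obese libraries -14.6, and those in WL libraries -7.30 for H3K4me3 and 0.448 for H3K27me3, all 4 then past the threshold. This setting keeps the peaks of highest total signal, so what is kept also depends on list length. As shares of own peak base pairs, H3K27ac in obese libraries (-2.42) no longer passed and WL minus obese turned to -1.34. H3K4me1 in obese libraries (-4.23), H3K4me3 in obese (-1.81) and WL (-3.33) and H3K27me3 in obese (0.864) and WL libraries (0.812) then passed.

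Counts of called members at equal peak base pairs were 1 for H3K27ac in WL against obese, 37 and 14 for H3K4me1 in obese and WL, 12 and 13 for H3K4me3, 6 for H3K27me3 in obese libraries, 48 for H against C, 1 for HC against CC_s and 1 for HH against CC_l. At equal numbers of peaks they were 9 and 2 for H3K4me1, 11 and 46 for H3K4me3 and 1 and 1 for H3K27me3. On the arcsine square root scale they were 1 and 10 for H3K4me3 and 1 and 1 for H3K27me3. Over whole spans they were 0 for H3K4me1 in obese libraries, 1 and 7 for H3K4me3, 2 for H3K27me3 in WL libraries and 2 for HC against CC_s, which had 1 without a minimum of covered base pairs. By treatment label both H3K4me3 counts were 0.

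With 1 library left out, H3K27ac in the cross-cohort regions ranged from -38.95 to -28.1 points in obese and from -26.5 to -2.11 in WL libraries, and WL minus obese from -3.88 to 9.09, negative without HH replicate 1 (-3.88) or HHC replicate 2 (-2.75). Beyond the other regions these were -4.12 to -2.43, -5.62 to -2.39 and -0.500 to 2.01, the last of them negative without HC replicate 1 (-0.186), HC replicate 2 (-0.188), HH replicate 1 (-0.500) or HHC replicate 1 (-0.201). H3K4me1 ranged from -23.1 (without HH replicate 3, then past the threshold) to -10.5 in obese and from -20.9 to -8.16 in WL libraries. H3K4me3 ranged from -18.6 (without CC_l replicate 1, then past it) to -5.48 in obese and from -18.5 to -10.6 in WL libraries. H3K27me3 ranged from -0.469 to 2.09 in obese libraries, negative without CC_l replicate 2 (-0.469) or HH replicate 2 (-0.0114), and from 1.26 to 2.86 in WL libraries. Counts ranged from 0 to 3 and 0 to 7 for H3K4me1 in obese and WL, 0 to 35 and 3 to 215 for H3K4me3, 0 to 45 and 0 to 18 for H3K27me3, 278 to 465 for H against C, 0 to 49 for HC against CC_s, 0 to 106 for HHC against CCC, and were 0 throughout for HH against CC_l and for H3K27ac in WL against obese libraries.

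Groups share replicate numbers, but the numbers did not pair the libraries: of 11 pairs of groups with 3 shared numbers, in 0 did every same-numbered pair have a correlation of deviations over 0.1, and the correlations ran from -0.723 to 0.669. With the replicate block the H3K27ac difference in obese libraries was -38.95 points (exact sign-flip permutation p = 0.0625, the smallest these pairs can give), and counts were 0 for H3K4me1 and 0 for H3K4me3 in obese libraries and 70 for H3K4me3 and 1 for H3K27me3 in WL libraries.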
